A study of Rattus norvegicus with 10 samples.

Results

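Dusp1 and Dusp6, 2 of the 4737 genes that an expression array named by a single symbol, were measured in rat liver after a burn injury by 5 of its 8799 probe sets: S74351_s_at, S81478_s_at and U02553cds_s_at for Dusp1, and U42627_at and X94185cds_s_at for Dusp6. These are all the probe sets whose single gene symbol in the probe table of the array was Dusp1 or Dusp6. The series had 10 arrays of total RNA, 2 in each of 5 groups: control rats given a sham procedure, labelled 0 h, and rats killed 1, 4, 8 or 24 h after the burn. The labels used here name no strain, sex, age or size of burn, and do not say whether an array held RNA of 1 animal or of several. Sham livers came only from 0 h, so the burn and the time elapsed since the procedure cannot be told apart. Both genes were chosen by their lower values at 4 h and 8 h in an earlier analysis of these arrays, so their levels and changes are given as a description, with no test.

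MAP kinases carry signals from growth factor, cytokine and stress receptors through a chain of kinases, and are switched on by phosphate groups on a threonine and a tyrosine. The dual-specificity phosphatases remove both groups and switch the kinase off again. Dusp1, also called MKP-1, sits in the nucleus, acts on p38, JNK and ERK, and is known as an immediate early gene that stress, cAMP and glucocorticoids induce. Dusp6, also called MKP-3, sits in the cytoplasm, acts on ERK, and is itself induced through ERK, so that it serves as a feedback inhibitor and as a common readout of ERK activity. In liver both are known for effects on glucose output and on growth.

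The DNA just upstream of both genes is shown because their mRNAs were low together at 4 h and 8 h and lay far apart at 24 h. Both genes were chosen by the low values at 4 h and 8 h, and whether these sequences bear on any level was not tested. The first sequence is the 250 bases before the start of Dusp1, and the second the 148 bases that end before the earliest annotated start of Dusp6. Both are plus-strand sequences from RefSeq (build GRCr8), at chr10:17184603-17184852 and chr7:35979354-35979501. Capitals mark the cAMP response element core TGACG and the E-box CACGTG in Dusp1, and the ETS factor core GGAA in Dusp6, on either strand.
Dusp1: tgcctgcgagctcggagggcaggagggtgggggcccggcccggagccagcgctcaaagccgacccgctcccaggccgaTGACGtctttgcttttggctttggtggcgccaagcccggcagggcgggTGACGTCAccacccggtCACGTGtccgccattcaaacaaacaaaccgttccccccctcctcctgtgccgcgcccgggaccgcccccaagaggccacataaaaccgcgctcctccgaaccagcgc
Dusp6: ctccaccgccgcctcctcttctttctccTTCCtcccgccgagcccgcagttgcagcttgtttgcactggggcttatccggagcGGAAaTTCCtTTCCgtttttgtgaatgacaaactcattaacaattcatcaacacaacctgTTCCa
The Dusp1 window held 3 matches to TGACG on either strand, starting 172, 124 and 121 bases before the gene. The last 2 of them overlap in 1 full cAMP response element, TGACGTCA. Of 33469 RefSeq promoter windows of the same length, 18.22% held TGACG at least once and 1.59% held TGACGTCA. Here and below, windows were not counted by their number of matches. The E-box CACGTG, a sequence also bound by clock factors, matched once, 107 bases before the gene, and was in 5.59% of windows. The Dusp6 window had 5 matches to GGAA and none to TGACG or CACGTG, and 80.87% of windows of 148 bases held GGAA at least once. GGAA also matched once in the Dusp1 window, 77 bases before the gene and not in capitals, and was in 93.23% of windows of that length. The glucocorticoid receptor half-site AGAACA, the AP-1 site TGANTCA and the CCAAT box matched in neither window. The GC box GGGCGG, not in capitals, matched 131 and 46 bases before Dusp1 and not in the Dusp6 window. It was in 30.47% of windows of 250 bases. A match is a description of letters, and no binding was measured.

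Intensities are used on the linear scale of the deposited values. For changes, a floor of 36.4 was set, which is the 25th percentile of an array at the median over arrays, and lower values were raised to it before log2 was taken. Median intensity per array ran from 100.1 to 131.1, and 70.3% to 76.85% of its values exceeded the floor. Hepatocyte identity was plain in every group: all 9 hepatocyte markers on the array, among them Alb (albumin, 42718.7 to 94416.8) and Ttr (transthyretin, 31431.9 to 43564.5), were far above the array median on every array. For genes other than Dusp1 and Dusp6, called means a Benjamini-Hochberg adjusted p under 0.05 in limma over the 5285 probe sets tested. Among the hepatocyte markers Fgb, a fibrinogen chain, was called higher at 8 h and 24 h and Cyp2e1, a cytochrome P450, lower at 8 h. Of 20 tested marker genes of endothelial, stellate, bile duct and lymphoid cells, limma called 0 at any time, with 2 to 4 at an unadjusted p under 0.05. Of all 5285 tested probe sets it called 76 to 543 at a time, with 636 to 1352 at an unadjusted p under 0.05. With 20 genes, 0 calls does not show that these cells were unchanged. The stellate marker Des and the lymphocyte marker Cd2 lay under the floor on every array. The 1 tested neutrophil marker, Cxcr2, was called lower at 8 h.

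Dusp1 mRNA was slightly above sham at 1 h, well below it at 4 h and 8 h, and below the array median at 24 h, on all 3 probe sets. The lowest group, 24 h, lay 16.1-fold to 60.7-fold below sham. On U02553cds_s_at the sham arrays read 2807.8 and 2538.2, the 1 h arrays 2977.2 and 3542.1, and the 4 h arrays 687.7 and 704.4. The 8 h arrays of the same probe set read 1151.6 and 956.7, and the 24 h arrays 74 and 92.1. On S74351_s_at the sham arrays read 2557.8 and 2518.5, the 1 h arrays 3419.7 and 3244.6, the 4 h arrays 340.1 and 399.7, the 8 h arrays 760 and 569.9, and the 24 h arrays 48.1 and 13.3. The last of these lay under the floor. On S81478_s_at the sham arrays read 1475.7 and 1448, the 1 h arrays 2085.4 and 1971.9, the 4 h arrays 260.9 and 249.7, the 8 h arrays 290.4 and 461, and the 24 h arrays 81.2 and 101.4. Each probe set gave the same order of groups, 24 h lowest, then 4 h, 8 h, sham and 1 h, and no group overlapped its neighbour in that order. Both 24 h arrays lay below the median of their array on all 3 probe sets, and the other 8 arrays lay above it.

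**Figure D1:**
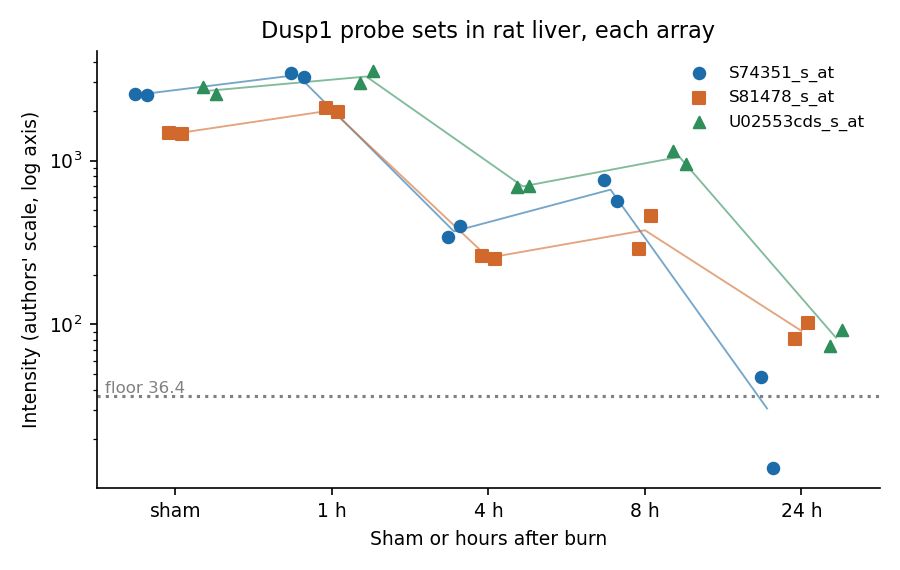
Intensity of the 3 Dusp1 probe sets on each of 10 arrays, on a log axis, by group; points are arrays (2 per group), lines join group means, and the dotted line is the floor of 36.4. All 3 probe sets dip at 4 h, stand a little higher at 8 h and are lowest at 24 h, where 1 array reads 13.3.

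At 1 h the log2 change of Dusp1 against sham was 0.39 (SE 0.21) on S74351_s_at, 0.47 (SE 0.24) on S81478_s_at and 0.28 (SE 0.19) on U02553cds_s_at (n = 2 and 2 arrays here and for every change below). Both 1 h arrays exceeded both sham arrays on 3 of 3 probe sets, as they did for 21.7% of the 5285 probe sets tested. At 4 h the log2 changes were -2.78, -2.52 and -1.94 in the same order, that is 6.88-fold, 5.73-fold and 3.84-fold below sham. At 8 h they were -1.95, -2.0 and -1.35, that is 3.86-fold, 4.0-fold and 2.54-fold below. Without the first or the second 8 h array the 8 h change on S81478_s_at was -1.66 or -2.33. The 8 h group therefore lay between 4 h and sham: its geometric mean was 1.43-fold to 1.78-fold above that of 4 h.

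At 24 h the log2 changes of Dusp1 were -5.92 (SE 0.21) on S74351_s_at, -4.01 (SE 0.24) on S81478_s_at and -5.02 (SE 0.19) on U02553cds_s_at. They correspond to levels 60.7-fold, 16.1-fold and 32.3-fold below sham, and ranked 2, 6 and 3 from the lowest among the 5285 probe sets. The probe sets differed most in size here, by 1.91 on the log2 scale, against 0.19 (1 h), 0.84 (4 h) and 0.65 (8 h). The value for S74351_s_at rests partly on the floor, which 1 of its 24 h arrays was under: the log2 change was -6.63 after the floor was lowered to the 10th percentile and -4.39 after it was raised to the 50th. From 8 h to 24 h the level was lower by a further 15.7-fold, 4.03-fold and 12.7-fold on S74351_s_at, S81478_s_at and U02553cds_s_at.

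Both burn arrays lay below both sham arrays for 3 of 3 Dusp1 probe sets at 4 h, 8 h and 24 h. The shares of all tested probe sets that did so were 26%, 29.7% and 29.4%. Since Dusp1 was picked from these contrasts, nothing is read from these counts.

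Genes of the exocrine pancreas, taken as a sum, stepped in the same direction as Dusp1 from each group to the next, by other amounts. All 15 genes of that marker list on the array were tested; limma called 11 higher at 1 h, 8 lower at 4 h, 4 higher at 8 h, and 9 lower at 24 h. Of all tested probe sets 0.795%, 1.99%, 1.55% and 6.34% were called in those directions. Their summed intensity was 9626 to 10370 on the sham arrays, 44630 to 47130 (1 h), 2317 to 2407 (4 h), 13500 to 13770 (8 h) and 2150 to 2556 (24 h). At 8 h that sum stood above sham while Dusp1 stood below it. The 7 macrophage markers summed to 3793 to 4102 in sham, 3904 to 4190 at 1 h, 2955 to 2966 at 4 h, 3811 to 3925 at 8 h and 2719 to 2830 at 24 h, with 0 of 5 tested genes called at 4 h (0 to 2 at an unadjusted p under 0.05 over the 4 times) and 1, Clec4f of Kupffer cells, lower at 24 h. The 5 erythroid markers summed to 51020 to 53320 in sham, 62370 to 71760 at 1 h, 39720 to 44340 at 4 h, 40600 to 47640 at 8 h and 40510 to 44210 at 24 h, with Hba-a3 called lower at 24 h. Their part in the Dusp1 values was not tested. In bulk tissue, fewer cells of a type and less RNA per cell cannot be told apart.

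Dusp6 mRNA followed another course: it was already low at 1 h, stayed low at 4 h and 8 h, and was back at or a little above the sham level at 24 h. On X94185cds_s_at the sham arrays read 782.1 and 655.4, the 1 h arrays 139.3 and 186.6, the 4 h arrays 51.2 and 112, the 8 h arrays 182.3 and 69.7, and the 24 h arrays 944.8 and 837. The 1 h, 4 h and 8 h groups lay below both sham arrays and the 24 h group above both. Among themselves the 4 h and 8 h groups overlapped, as did the 8 h and 1 h groups. On U42627_at the sham arrays read 262.4 and 348.8, the 1 h arrays 198.6 and 42.3, the 4 h arrays 112.9 and 79.3, the 8 h arrays 165.7 and 132.6, and the 24 h arrays 370.5 and 332.2. The same 3 groups lay below sham on this probe set, while the 24 h and sham arrays overlapped. Its 1 h arrays differed 4.7-fold from each other, the widest gap between arrays of a group in either gene.

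**Figure D2:**
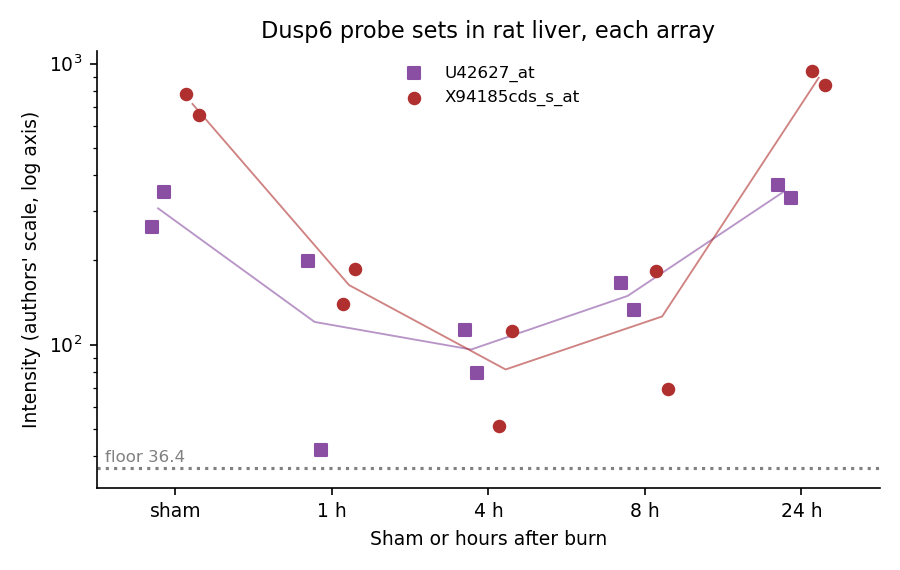
Intensity of both Dusp6 probe sets on each of 10 arrays, on a log axis, by group; points are arrays (2 per group), lines join group means, and the dotted line is the floor of 36.4. Both probe sets are low from 1 h to 8 h and back at the sham level or above at 24 h, where X94185cds_s_at reads 944.8 and 837.

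On X94185cds_s_at the log2 changes of Dusp6 against sham were -2.15 (1 h), -3.24 (4 h), -2.67 (8 h) and 0.31 (24 h), with an SE of 0.51 each. They equal levels 4.44-fold, 9.45-fold and 6.35-fold below sham and, at 24 h, 1.24 times sham. On U42627_at the log2 changes were -1.72, -1.68, -1.03 and 0.21 (SE 0.64 each), that is 3.3-fold, 3.2-fold and 2.04-fold below and 1.16 times sham. The probe sets shared the direction at each time and differed in size, by 1.56 at 4 h and 1.64 at 8 h on the log2 scale. Single arrays weighed on these values. On U42627_at the 1 h change was -2.84 without the first 1 h array and -0.61 without the second. On X94185cds_s_at the 8 h change was -3.36 without the first 8 h array and -1.97 without the second, and the 4 h change was -2.68 and -3.81 without the first and second 4 h arrays.

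Both burn arrays lay below both sham arrays on 2 of 2 Dusp6 probe sets at 1 h, 4 h and 8 h, beside 21%, 26% and 29.7% of all tested probe sets. At 24 h, 1 of 2 lay above, beside 24.6%. The gene was picked from these contrasts too, so nothing is read from the counts. Between 8 h and 24 h the level went up 7.89-fold on X94185cds_s_at and 2.37-fold on U42627_at, while Dusp1 was lower at 24 h than at 8 h. Of the marker sums given above, those of macrophages, erythroid cells and exocrine pancreas were below sham at 4 h, where Dusp6 was low, and at 24 h, where it was not. At 8 h only the erythroid one of these sums was below both sham arrays, and at 1 h none was. Of the other lists, the sum of endothelial markers at 8 h was 757.6 to 928.8, against 1028 to 1309 in sham. The sum of neutrophil markers at 1 h was 130 to 150.1, against 189.3 to 248.6 in sham. That of stellate markers lay above sham (3011 to 3692) at 1 h (3947 to 4440) and 4 h (3852 to 3875). Also above sham were lymphocyte markers at 1 h (1662 to 1830, against 1272 to 1537). Hepatocyte markers were above it at 8 h (364000 to 373200, against 304300 to 355200). All remaining sums of these lists and of bile duct markers overlapped sham at 1, 4 and 8 h. Their part in the Dusp6 values was not tested.

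**Figure D3:**
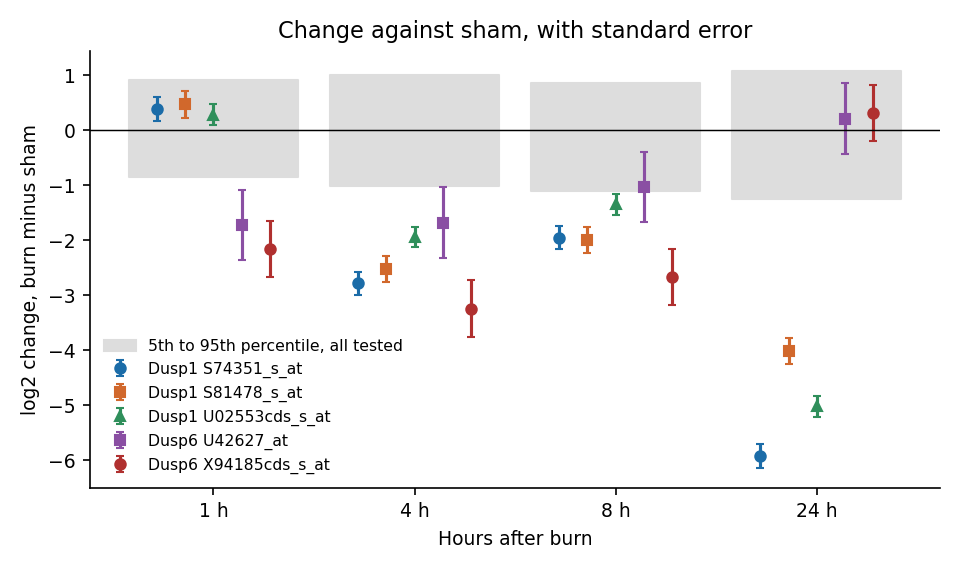
Log2 change against sham at each time for the 5 probe sets, with the standard error of the model (n = 2 and 2 arrays); grey boxes span the 5th to 95th percentile of all 5285 tested probe sets. Dusp1 lies inside the box at 1 h and far under it at 24 h (-4.01 to -5.92), and Dusp6 lies under it at 1 h and inside it at 24 h (0.21 and 0.31).

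Across the 10 arrays the 3 Dusp1 probe sets correlated with each other at r = 0.944 to 0.991 on the log2 scale, and the Dusp6 pair at r = 0.706. Dusp1 and Dusp6 probe sets correlated at -0.416 to -0.123. These values describe 10 arrays in 5 groups, which share their group means.

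The genes whose pattern was most like that of each phosphatase were found by Pearson's r over the 10 arrays, with the probe set of highest mean as the reference. Picking by r selects for the course of the reference, so directions shared with it describe the choice and are not a result. For Dusp1 (U02553cds_s_at) they were Aldh6a1 (r = 0.981), an enzyme of valine breakdown, Rnase4 (0.971), a secreted ribonuclease, Nectin1 (0.969), a cell adhesion protein, Avpr1a (0.968), the vasopressin V1a receptor, and Acsl1 (0.962), which activates long-chain fatty acids. Their mean intensities at 24 h were all below sham, for example 2123.6 against 8741.8 for Rnase4 and 255.5 against 992.3 for Avpr1a. Their log2 changes at 24 h ran from -2.05 to -0.93, smaller than that of Dusp1. For Dusp6 (X94185cds_s_at) they were Id3 (r = 0.937), an inhibitor of basic helix-loop-helix factors, Ier3 (0.931), an early response gene induced through ERK, Sfxn1 (0.917), a mitochondrial serine carrier, L1cam (0.898), a cell adhesion protein, and Nr2f6 (0.893), an orphan nuclear receptor. Ier3 on X96437mRNA_g_at had means of 1001.95 in sham, 431.1 (1 h), 241.65 (4 h), 471 (8 h) and 1161.3 (24 h), low from 1 h to 8 h and back at 24 h. Its brighter probe set X96437mRNA_at had the same directions and smaller log2 changes at 1 h, 4 h and 8 h, -0.3, -0.92 and -0.59 against -1.22, -2.05 and -1.09, and was called at no time (adjusted p = 0.0821 at 4 h). With Spearman's rho in place of r, 1 of the 5 genes was still among the 5 most like Dusp1 and 2 of the 5 among those most like Dusp6.

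**Figure D4:**
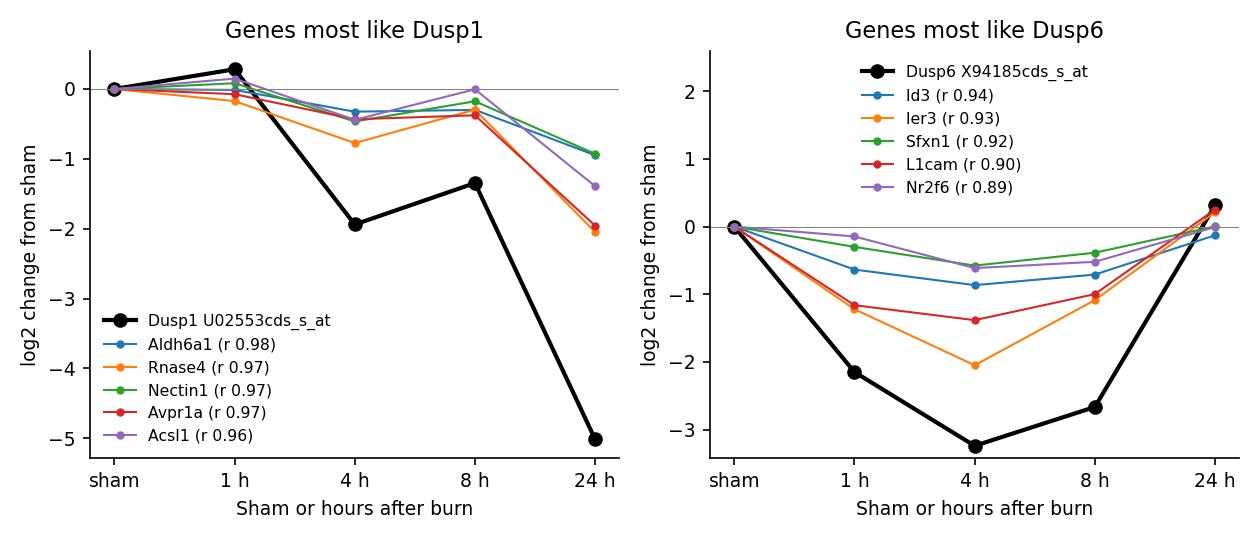
Log2 change from sham by group for the reference probe set of each phosphatase (black) and the 5 genes most like it over 10 arrays, with r in the legend. The like genes were chosen by r, so the direction they share at 4 h is no separate result. Their changes at 4 h are smaller than those of Dusp1 or Dusp6, with Ier3 at -2.05 nearest to Dusp6.

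The calls among other MAP kinase pathway genes are given beside the share called among all probe sets. Of 69 tested genes in 6 lists, from receptors to genes induced through ERK, limma called 0 higher and 1 lower at 1 h, 2 and 2 at 4 h, 1 and 3 at 8 h, and 2 and 2 at 24 h. At an unadjusted p under 0.05 there were 8, 12, 20 and 12 of the 69. The matching counts among all 5285 tested probe sets were 636, 918, 985 and 1352. Over all tested probe sets 0.795% were called higher and 0.643% lower at 1 h, 2.37% and 1.99% at 4 h, 1.55% and 1.95% at 8 h, and 3.94% and 6.34% at 24 h. The median log2 change of the 69 genes was 0.06, 0.01, -0.33 and -0.1 at the 4 times, beside 0.01, -0.04, -0.1 and -0.04 for all tested probe sets.

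Among other phosphatases of MAP kinases, 0 of 6 tested genes were called at any time by limma (1, 1, 3 and 0 at an unadjusted p under 0.05). Dusp5, a nuclear ERK phosphatase, ran from 158.9 to 501.6, with a median of 368.8. Its sham arrays read 446.6 and 443.7, its 4 h arrays 315.2 and 442.3, and its 8 h arrays 158.9 and 291.9. The log2 changes were -0.25 at 4 h and -1.05 at 8 h (SE 0.35, adjusted p = 0.8 and 0.169 in limma), so it was not called. Both 8 h arrays lay below both sham arrays for 2 of the 6 genes, Dusp5 among them, and above for 1. The matching shares of all tested probe sets were 29.7% and 18.6%. Dusp4 and Dusp7 were too dim to be tested: Dusp4 was under the floor on 7 of 10 arrays, and Dusp7 ran from 40.4 to 138.3.

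Of 15 receptors and ligands, 1 was called lower at 4 h, 1 higher at 8 h, and 1 higher and 1 lower at 24 h. Erbb3, a partner receptor of the EGF receptor family, was called lower at 4 h (log2 change -0.77, SE 0.16, adjusted p = 0.044) and at 24 h (-1.18, SE 0.16, adjusted p = 0.0057). Its other probe set, U52530_s_at, had a log2 change of -1.26 at 24 h with an adjusted p of 0.0897. Erbb2 was higher at 8 h (log2 change 1.99, SE 0.34, adjusted p = 0.0297), and Kit, the stem cell factor receptor, at 24 h (0.67, SE 0.15, adjusted p = 0.0376). Each exceeded the array median only on the arrays of that group, so it was tested only through the group where it was high. Erbb2 read 49.4 and 44 on the sham arrays, near the floor, and its 8 h change was 0.62 with the floor at the 50th percentile. The Erbb3 call at 4 h and the Kit call ended without any 1 of the 10 arrays (adjusted p up to 0.171 and 0.164), and the Erbb2 call when a sham, 8 h or 24 h array was left out (up to 0.12). The Erbb3 call at 4 h also ended after quantile normalization, with an adjusted p of 0.0544, that of Kit with the higher floor or an intensity trend (up to 0.406), and that of Erbb2 without the filter or with an intensity trend (up to 0.0596). Of 11 tested adaptors, Ras and Raf genes 0 were called at any time (0, 0, 2 and 2 at an unadjusted p under 0.05).

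Map3k1, a kinase upstream of JNK and ERK, was the gene of the kinase cascade called at most times. Its sham arrays read 982.1 and 901.8, the 4 h arrays 398.6 and 451.2, the 8 h arrays 335.1 and 340.5, and the 24 h arrays 360 and 348.8. The log2 changes were -1.15 (4 h), -1.48 (8 h) and -1.41 (24 h; SE 0.17 each, adjusted p = 0.013, 0.00902 and 0.00402), and its probe set U48596_at was called lower at the same times. A further probe set, rc_AI102620_at, was not called (log2 change -0.91, adjusted p = 0.11, at 8 h). Gadd45a, a stress protein that binds a kinase of this cascade, was called higher at 4 h (log2 change 0.89, SE 0.15, adjusted p = 0.0209). Its probe set L32591mRNA_at was called too (1.4, adjusted p = 0.0112), while rc_AI070295_g_at (1.35, adjusted p = 0.121) and rc_AI070295_at (0.33, adjusted p = 0.716) were not. Mapk6, the atypical kinase ERK3, was called higher at 4 h (log2 change 1.1, SE 0.19, adjusted p = 0.0208) and lower at 8 h (-1.18, adjusted p = 0.025), while M64301_at was not called (1.17 and -1.23, adjusted p = 0.0936 and 0.084). The other 9, 10 and 10 of the 11 kinase kinases and their partners were not called at 4 h, 8 h and 24 h, and 0 of the 11 were at 1 h (1 at an unadjusted p under 0.05). With 1 array left out, the Map3k1 call ended at 4 h without either sham array or the first 4 h array (adjusted p up to 0.0797) and at 8 h without the first sham array or the second 8 h array (up to 0.0629). Those of Gadd45a and Mapk6 at 4 h ended with any of the sham or 4 h arrays left out (up to 0.115 and 0.108), and that of Mapk6 at 8 h with any of the sham, 4 h or 8 h arrays left out (up to 0.106).

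Among 19 tested genes known to be induced through ERK, limma called 1 lower at 1 h, 0 at 4 h (3 at an unadjusted p under 0.05), 1 lower at 8 h, and for 24 h 1 higher. Junb was called lower at 1 h and 8 h (log2 changes -1.57 and -1.32, SE 0.21, adjusted p = 0.0147 and 0.025), and not on rc_AA891041_at (-1.99 and -1.57, adjusted p = 0.246 and 0.236). Egr1, an early growth response factor, was called higher at 24 h on AF023087_s_at, from 928.8 and 967.9 on the sham arrays to 2004.4 and 1748.3 (log2 change 0.98, SE 0.16, adjusted p = 0.0115). Its probe set M18416_at was called too (1.25, adjusted p = 0.0181), while rc_AI176662_s_at (1.84, adjusted p = 0.0668) and U75398_s_at (-0.05, adjusted p = 0.946) were not. The median log2 change of the list was 0.23 (1 h), -0.04 (4 h), -0.51 (8 h) and -0.25 (24 h). Both burn arrays lay above both sham arrays for 6 of the 19 at 4 h and below for 5, and at 8 h above for 1 and below for 10. Of all tested probe sets 20.1% lay above and 26% below at 4 h, and 18.6% above and 29.7% below at 8 h. The Junb call at 1 h ended with any of the sham or 1 h arrays left out (adjusted p up to 0.106). Its call at 8 h ended with any of the sham, 4 h or 24 h arrays or the second 8 h array left out (up to 0.115), and that of Egr1 without either sham array or the first 24 h array (up to 0.0699).

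**Figure D5:**
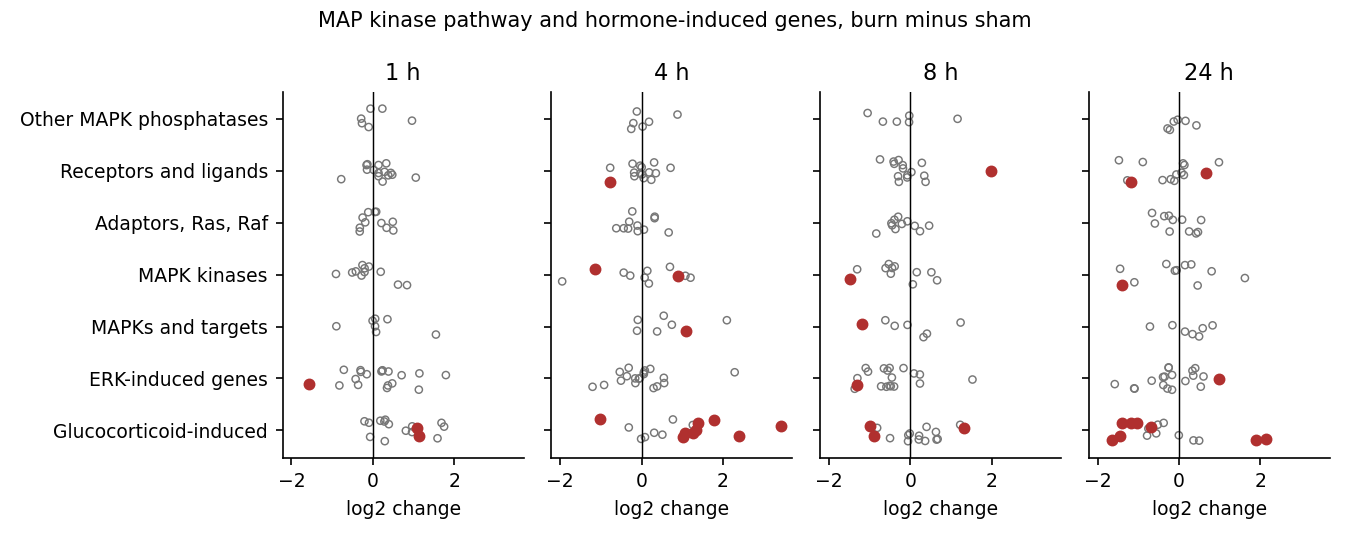
Log2 change against sham at 1, 4, 8 and 24 h for each tested gene of 7 lists (1 point per gene, the brightest probe set); filled red points passed limma's adjusted p under 0.05 and open points did not. Few genes of the 6 MAP kinase lists are filled, and the hormone-induced list has 8 filled points on the right at 4 h and 6 on the left at 24 h.

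Dusp1 is known as a glucocorticoid-induced gene, so 16 other genes induced by this hormone are given beside it. Limma called 2 of them higher and 0 lower at 1 h, 8 and 1 at 4 h, 1 and 2 at 8 h, and 2 and 6 at 24 h, with median log2 changes of 0.6, 1.04, 0.21 and -0.63. Of all tested probe sets 0.795% were called higher and 0.643% lower at 1 h, and 2.37% and 1.99% at 4 h. The shares were 1.55% and 1.95% at 8 h, and 3.94% and 6.34% at 24 h. Median log2 changes of all tested probe sets were 0.01, -0.04, -0.1 and -0.04. At 4 h Dusp1 lay opposite to the 8 called higher and on the side of the 1 called lower, Zfp36l1 (log2 change -1.01, adjusted p = 0.0374). Dusp1 was chosen for its low values at 4 h, which fixed its side there, so nothing is read from it. At 24 h it lay on the side of the 6 called lower, which were Cebpb, Igfbp1, Klf9, Pck1, Zfp36 and Zfp36l1. Igfbp1, which binds insulin-like growth factors, read 5989.7 and 5824.5 in sham, 15098.5 and 15906.1 at 4 h, and 1903.3 and 1855.1 at 24 h (log2 change -1.65, SE 0.15, adjusted p = 0.00108, at 24 h). Klf9, a transcription factor, had log2 changes of 1.06 at 4 h, -0.88 at 8 h and -1.46 at 24 h (SE 0.17, adjusted p = 0.0167, 0.0435 and 0.00325). Its probe set D12769_at was called at 4 h and 24 h (adjusted p = 0.0208 and 0.0271) and not at 8 h (log2 change -0.5, adjusted p = 0.173). Zfp36, which speeds the decay of cytokine mRNAs, was lower at 8 h on rc_AA800613_at (log2 change -0.99, SE 0.19, adjusted p = 0.0406) and not called on X63369cds_at (-0.87, adjusted p = 0.225). The 2 called higher at 24 h were Tdo2, the tryptophan-degrading enzyme (log2 change 2.14, SE 0.16, adjusted p = 0.000619), and Got1, an aspartate aminotransferase (1.89, SE 0.2, adjusted p = 0.00213). Got1 was also higher at 8 h (1.32, adjusted p = 0.0205), and Igfbp1 and Tat, tyrosine aminotransferase, were higher at 1 h (1.09 and 1.14, adjusted p = 0.017 and 0.012). Leaving out any of the sham arrays or those of the same time ended the 1 h calls of Igfbp1 and Tat (adjusted p up to 0.122 and 0.0891), the 4 h call of Klf9 (up to 0.0965) and the 8 h call of Got1 (up to 0.096). Those of Klf9 and Zfp36 at 8 h ended without any 1 of the 10 arrays (up to 0.183 and 0.171), and after quantile normalization (up to 0.0674). All 4 comparisons share the same sham arrays.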

How the data were processed

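Rat liver RNA was measured on 10 arrays in 5 groups of 2. The authors deposited 1 intensity value per probe set and array on a linear scale. Per the labels' fields used here, no software or scaling step is named; from the values, the mean after removal of 2% of values at each end was 500.91 to 501.04 on every array, so the arrays were used as deposited. The values were raised to a floor of 36.4 and put on the log2 scale. A probe set was tested if it exceeded the array median on 2 or more arrays (5285 of 8799, all 5 of Dusp1 and Dusp6 among them). The 5 groups were fitted in 1 limma model (limma 3.58.1, R 4.3.3; 5 residual degrees of freedom; two-sided; Benjamini-Hochberg over 5285 probe sets), after a check on simulated data. The number of arrays limits the precision, and p-values cover only the spread between arrays of a group, which may be technical.

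Of the probe sets, 7018 had 1 symbol in the probe table of the array, 308 several and 1473 were not listed. RefSeq's gene table held the gene ID of 6994, and 0 symbols changed. A gene of a list was represented by its brightest tested probe set. Dusp1 and Dusp6, the 7 pathway lists and the 9 marker lists were chosen with earlier results of these data known. The text names every probe set of both genes, the 5 genes most like each by r, and up to 3 called genes per list and time with the smallest p of limma's F test, both burn arrays lying beyond both sham arrays. Other Dusp genes, the called members of the hormone list at 24 h, Zfp36l1 at 4 h, Got1 at 24 h, Alb, Ttr, Des, Cd2 and the called markers of cells other than exocrine pancreas, were named outside that rule, after their values were seen.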

Additional observations from a re-analysis of the deposited data

Results flagged for a closer look

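These genes had both arrays of 1 burn group above both sham arrays and both arrays of another burn group below them. For none of them was the difference between the times itself tested. At a single time 18.6% to 24.6% of all tested probe sets had both burn arrays above both sham arrays, and 21% to 29.7% below. The share that did both at different times was not counted. For Dusp1 the 1 h and 24 h log2 changes lay 6.315 apart on S74351_s_at, 4.482 on S81478_s_at and 5.298 on U02553cds_s_at, with 1 h above sham and 24 h below. On S74351_s_at this distance depends on the floor, since 1 of its 24 h arrays was under it: the 24 h change was -6.63 with a lower floor and -4.39 with a higher one. For Dusp6 on X94185cds_s_at the 24 h change lay 3.554 above the 4 h change.

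Among the named pathway genes, the same held for 8 more. These were named only if both burn arrays lay beyond both sham arrays at some time. That choice fixed part of the pattern, so nothing is read from their number. Kit (1.446), Junb (1.97) and Egr1 (1.804) were above sham at 24 h and below it at 1 h, with the distance between the log2 changes in parentheses. Gadd45a (1.339) and Mapk6 (2.278) were above sham at 4 h and below it at 8 h. Igfbp1 (3.044), Tat (1.779) and Klf9 (2.521) were above sham at 4 h and below it at 24 h.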

How the results depend on the processing

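Of 340 values of the Dusp1 and Dusp6 changes under 17 alternatives, 326 moved by less than the spread between arrays, 14 moved by more and 0 turned direction. Many of the 340 could not move, so the 326 does not measure how stable the changes are. Dropping the filter, the intensity trend, the replicate block and the fit of only the groups compared leave each difference of group means as it is. Leaving out a burn array alters the change at its own time only. With a lower floor (10th percentile) the 24 h change of S74351_s_at was -6.63. With a higher floor (50th percentile) the 24 h changes of Dusp1 were -4.39 (S74351_s_at), -3.59 (S81478_s_at) and -4.46 (U02553cds_s_at), and those of Dusp6 were -0.96 at 1 h on U42627_at and -2.56 at 4 h on X94185cds_s_at. A higher floor shortens every change of a dim group by construction. With 1 array left out in turn, U42627_at ran from -2.84 to -0.61 at 1 h, X94185cds_s_at from -3.81 to -2.68 at 4 h and from -3.36 to -1.97 at 8 h, and S81478_s_at from -2.33 to -1.66 at 8 h. The lone array that remained in a group was taken to vary as the other groups do.

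Counts of calls could differ under every setting, also under those that leave the changes as they are. In the main model 76, 230, 185 and 543 probe sets were called at 1, 4, 8 and 24 h, and 3, 13, 7 and 12 of 85 pathway genes. With the higher floor 133, 374 and 312 probe sets were called at 1, 4 and 8 h, and 10 and 11 pathway genes at 1 h and 8 h. With an intensity trend and robust variance the counts were 140, 380, 377 and 830, with 9 and 11 pathway genes at 1 h and 8 h. With no filter 280 probe sets and 12 pathway genes were called at 8 h, and 6 pathway genes at 1 h, as after quantile normalization. With only the groups compared limma called 0, 69, 0 and 104 probe sets (574, 770, 779 and 1197 at an unadjusted p under 0.05) and 0, 3, 0 and 3 pathway genes (15, 23, 19 and 17), and 21 of the 24 named calls ended. With 1 array left out the probe set counts ran from 29 to 75, 125 to 222, 43 to 107 and 216 to 482, the pathway counts from 0 to 5, 5 to 13, 0 to 5 and 7 to 10, and 7 of the 24 named calls held throughout. The replicate block gave 72, 240, 156 and 583 probe sets and 3, 14, 7 and 11 pathway genes. Arrays with the same number deviated from their group means with correlations of 0.0111 to 0.17, so the number was not taken as a pairing, and the block ended 1 named call, that of Erbb3 at 4 h. After quantile normalization 4 of the 5 genes most like each phosphatase were kept.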
